A study of Mus musculus with 24 samples.

Results

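Regulators of G protein signalling (RGS proteins) end the signal that a G protein-coupled receptor starts. Each carries an RGS domain that binds the active, GTP-loaded alpha subunit of a heterotrimeric G protein and speeds its GTP hydrolysis, so that the alpha and beta-gamma subunits rejoin. In B lymphocytes the receptors concerned are mainly the chemokine, sphingosine 1-phosphate and oxysterol receptors that place a cell in the follicle, the germinal center or the marginal zone, and RGS proteins set how strongly and for how long a cell answers those cues. The 8 family members described here are Rgs1, Rgs2, Rgs10, Rgs13, Rgs14, Rgs16, Rgs18 and Rgs19. They were taken by gene symbol, and where several probe sets are annotated to a member and no other gene, the brightest by its mean represents it. They are 8 of 18193 genes measured that way, with 15 of 45101 probe sets, and 7 of the 8 passed a filter on dim genes that kept 11208 genes. Rgs16 did not pass it.

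The arrays compared spleen B cell populations of female C57BL/6 wild-type mice aged 8 to 10 weeks at the start, on Affymetrix Mouse Genome 430 2.0 chips, with 3 arrays in each of 8 groups. From mice immunized with NP-CGG in alum, a hapten on a carrier protein, NIP-binding cells were sorted as plasma cells (B220+IgG1low CD138+Igλ+, day 7), germinal center B cells (B220+IgG1+ CD38dullPNA+, days 40 and 7) and memory B cells (B220+IgG1+ CD38+PNA-, days 40 and 7). From mice for which no immunization is labelled came marginal zone B cells (B220+AA4.1- CD21highCD23low), follicular B cells cultured for 6 h with 10 μg/ml of F(ab')2 anti-IgM and 2 μg/ml of anti-CD40, and follicular B cells without culture (B220+AA4.1- CD21intCD23+). Before sorting, T cells, myeloid cells and erythroid cells were depleted magnetically, along with natural killer cells and cells with IgM or IgD in the immunized groups and cells with CD43, CD95 or CD138 in the naive ones, and the RNA was amplified before labelling. None of the 8 groups was cultured without stimulation, so culture and stimulation cannot be told apart in the results on stimulated cells. The labels do not say whether the 3 arrays of a group came from separate mice, sorts or cultures, so the p-values measure the spread between these arrays, which may be technical.

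Values are log2 signals with a floor of 2.15, at which 36.8% to 43.1% of the probe sets of an array lay, and array medians ran from 2.39 to 2.86. Because each probe set binds with its own strength, levels were compared between groups for 1 gene and never between genes. The precision is limited by the 3 arrays of each group. For each gene, 1 estimate of the spread was shared by all 8 groups, so a variable group affects the standard error of every comparison. Arrays of a group correlated at 0.961 to 0.996 over 24 pairs. One array stood apart: replicate 1 of the day 7 memory cells correlated with the day 7 germinal center arrays at a mean of 0.947, against 0.910 and 0.903 for the other two memory arrays of that day. It also carried the germinal center markers Gcsam, Mef2b and Mybl1 at 9.21, 9.31 and 9.95, where the other day 7 memory arrays had 2.26 to 3.61. Member results on day 7 memory cells are given with and without it. A sorted population is a mixture as far as RNA goes: a smaller share of cells that express a gene and less RNA of it per cell cannot be told apart here.

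Several RGS genes lie side by side. In RefSeq's GRCm38.p6 annotation Rgs2, Rgs13, Rgs1, Rgs21 and Rgs18 are consecutive protein-coding genes on chromosome 1, where Rgs16 lies too, while Rgs19 is on chromosome 2, Rgs10 on chromosome 7 and Rgs14 on chromosome 13. Rgs2, Rgs13 and Rgs1 were higher in germinal center than in follicular cells and Rgs18 was lower (values below), so neighbours in 1 run of genes went both ways. The RefSeq promoter windows of 250 bases before to 50 bases after the gene start are shown for 3 of the 4 members that were higher in germinal center cells (Rgs1 is named only), on the strand of the gene, with matches to the motifs searched in capitals. Rgs2 lies at chr1:144004100-144004399, Rgs13 at chr1:144177323-144177622 and Rgs10 at chr7:128418123-128418422 (all GRCm38.p6, minus strand).
Rgs2: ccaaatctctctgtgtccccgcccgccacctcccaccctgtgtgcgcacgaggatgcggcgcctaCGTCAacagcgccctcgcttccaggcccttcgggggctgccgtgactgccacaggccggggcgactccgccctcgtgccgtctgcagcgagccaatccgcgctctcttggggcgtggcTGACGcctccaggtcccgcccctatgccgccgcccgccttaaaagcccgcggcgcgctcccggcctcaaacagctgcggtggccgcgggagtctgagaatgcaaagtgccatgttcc
Rgs13: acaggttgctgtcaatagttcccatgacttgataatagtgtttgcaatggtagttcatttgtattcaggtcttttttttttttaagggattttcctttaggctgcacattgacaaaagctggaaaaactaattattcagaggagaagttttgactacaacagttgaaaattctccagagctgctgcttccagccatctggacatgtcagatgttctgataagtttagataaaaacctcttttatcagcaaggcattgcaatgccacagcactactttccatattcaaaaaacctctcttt
Rgs10: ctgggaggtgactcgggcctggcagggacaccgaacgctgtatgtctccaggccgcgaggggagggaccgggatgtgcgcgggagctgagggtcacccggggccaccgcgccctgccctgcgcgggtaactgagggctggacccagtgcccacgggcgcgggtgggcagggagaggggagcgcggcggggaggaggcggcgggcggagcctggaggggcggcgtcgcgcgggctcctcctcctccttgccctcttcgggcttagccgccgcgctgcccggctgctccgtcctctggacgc

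The windows differ in composition. The Rgs13 window holds 36.7% G and C, against 70.0% in Rgs2 and 76.0% in Rgs10. Over all 32851 promoter windows of the same length the median was 52.7%, with 39.7% at the 10th percentile and 69.7% at the 90th, so Rgs13 lies below and the other two above that range. Both strands were searched for TGANTCA (the AP-1 motif), TGACG (the core of the cyclic AMP response element), CACGTG (the E-box) and TATAAA. Rgs2 has 2 matches, both to TGACG, with starts 185 and 67 bases before the gene start. That motif is in 20.8% of all windows, the AP-1 motif in 7.81%, the E-box in 7.15% and TATAAA in 13.6%. The windows of Rgs13 and Rgs10 hold no match.

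A gene was called when its log2 change was at least 1 in size and its adjusted p was under 0.05 in a limma fit of all 24 arrays, with Benjamini-Hochberg adjustment over all 11208 genes. Against follicular B cells, which serve 7 of the comparisons and are therefore shared by them, 5 of the 7 tested members were called in plasma cells (42.7% of all genes were), 6 in day 40 germinal center cells (32.4%), 6 in day 7 germinal center cells (31.0%), 5 in day 40 memory cells (13.8%), 5 in day 7 memory cells (18.4%), 1 in marginal zone cells (11.0%) and 5 in stimulated follicular cells (39.3%). The medians of the 7 members' log2 changes in that order were -1.40, 2.53, 2.70, 2.40, 2.05, -0.15 and -0.62, where the median over all genes was between -0.05 and 0. In marginal zone cells the members' share of calls was close to that of all genes.

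**Figure D1:**
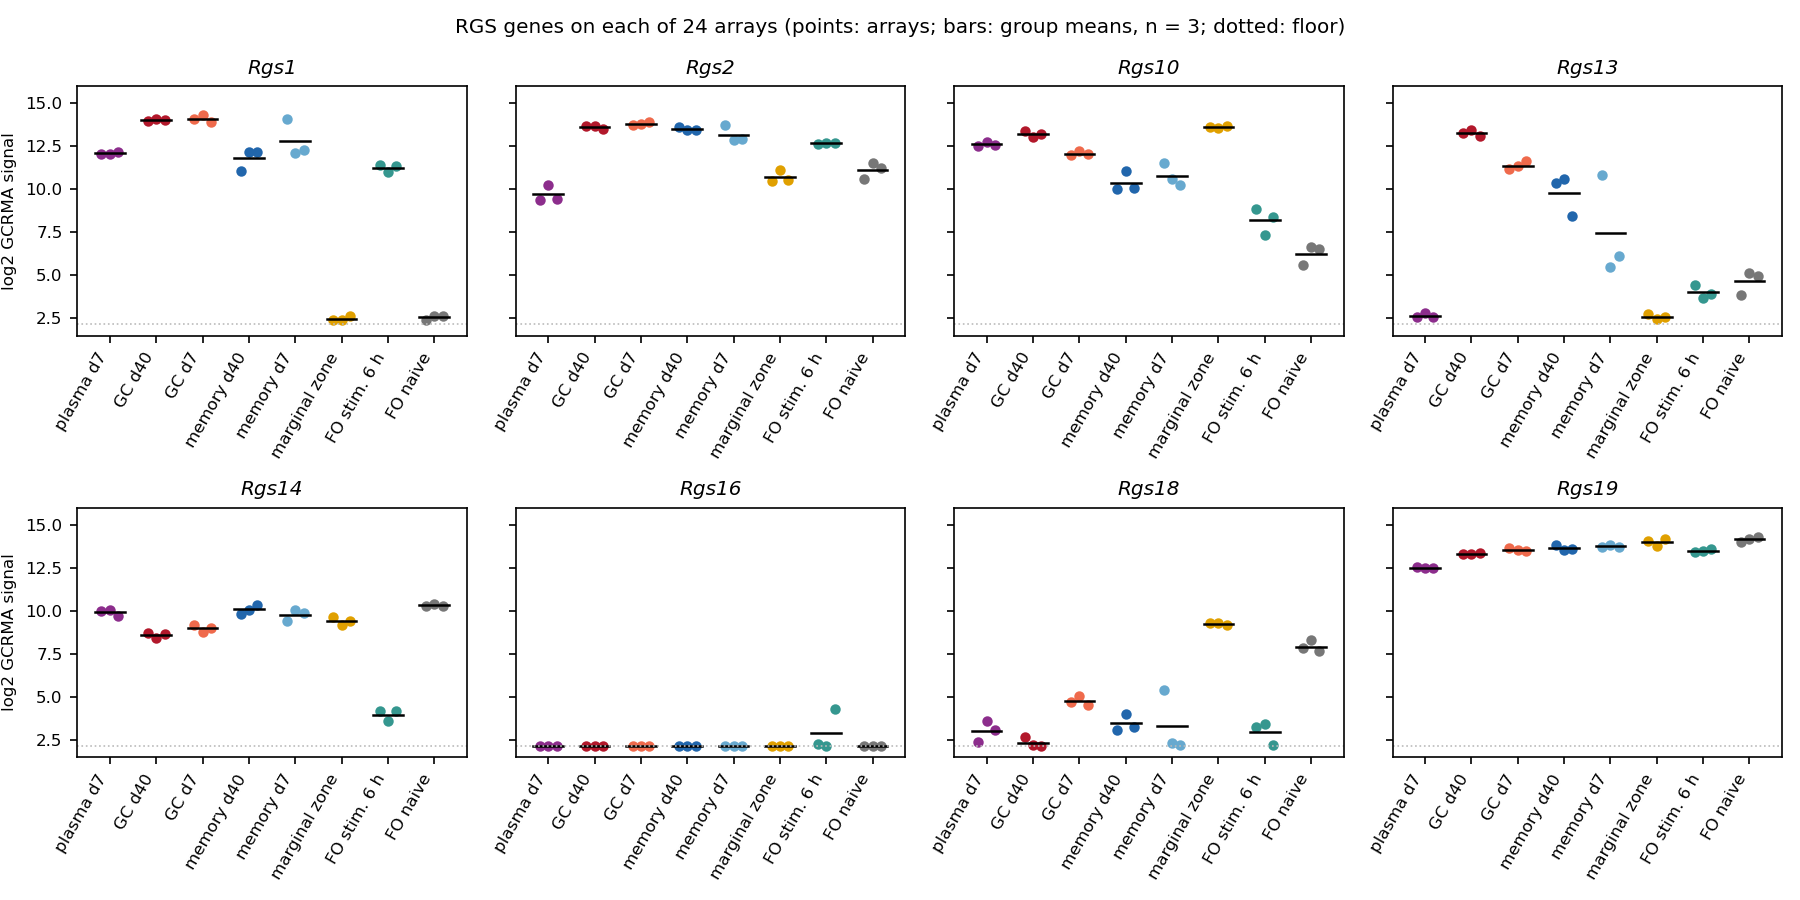
Log2 signal of the 8 RGS genes (vertical axis) on each of the 24 arrays, by group along the horizontal axis. Points are arrays, bars are means of 3 arrays and the dotted line is the floor of 2.15. Rgs1 is near the floor in marginal zone and naive follicular cells only, Rgs14 is lowest in stimulated follicular cells, Rgs18 is highest in marginal zone and naive follicular cells, and Rgs16 stays at the floor outside the stimulated arrays.

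Rgs1 blunts the migration of B cells toward chemokines by acting on the inhibitory G alpha subunits those receptors use. It was near background in both naive populations and high in every other group. Its signals were 12.05, 12.04 and 12.19 in plasma cells, 13.98, 14.08 and 14.03 in day 40 germinal center cells, 14.08, 14.30 and 13.90 in day 7 germinal center cells, 11.09, 12.18 and 12.16 in day 40 memory cells, 14.06, 12.12 and 12.31 in day 7 memory cells, 2.39, 2.41 and 2.66 in marginal zone cells, 11.43, 10.99 and 11.36 in stimulated follicular cells and 2.39, 2.66 and 2.66 in follicular cells. The lowest of the 18 arrays of the antigen-experienced and stimulated groups stood at 10.99 and the highest of the 6 naive arrays at 2.66, so these did not overlap.

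Against follicular cells the log2 change of Rgs1 was +9.52 in plasma cells, +11.46 and +11.52 in germinal center cells of days 40 and 7, +9.24 and +10.26 in memory cells of days 40 and 7, and +8.69 in stimulated cells, each ± 0.36 (SE), with adjusted p of 7.15e-13 or less. In marginal zone cells it was -0.08 ± 0.36 (95% interval -0.84 to 0.67, adjusted p = 0.978). The follicular signal lay about at the array medians, so these changes are measured against background. Ordered by mean, both germinal center groups came first (14.09 ± 0.20 on day 7 and 14.03 ± 0.05 on day 40, SD, n = 3 each) and overlapped each other, and the day 7 memory, plasma, day 40 memory and stimulated groups followed, each overlapping its neighbour.

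Rgs2 acts most strongly on the Gq class of alpha subunits and is an immediate early gene in several cell types. It was present in every group, rose in the germinal center, memory and stimulated cells and fell in plasma cells. The signals were 9.39, 10.26 and 9.46 in plasma cells, 13.68, 13.67 and 13.53 in day 40 germinal center cells, 13.74, 13.78 and 13.88 in day 7 germinal center cells, 13.59, 13.46 and 13.46 in day 40 memory cells, 13.71, 12.85 and 12.90 in day 7 memory cells, 10.51, 11.10 and 10.54 in marginal zone cells, 12.64, 12.68 and 12.71 in stimulated cells and 10.59, 11.50 and 11.21 in follicular cells. Plasma cells were below follicular cells without overlap, marginal zone cells overlapped follicular cells, and the other 5 groups were above them.

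The log2 changes of Rgs2 against follicular cells were -1.40 in plasma cells (adjusted p = 9.66e-05), +2.53 and +2.70 in germinal center cells of days 40 and 7, +2.40 and +2.05 in memory cells of days 40 and 7, and +1.58 in stimulated cells (adjusted p = 3.17e-05), each ± 0.25. In marginal zone cells the change was -0.38 ± 0.25 (95% interval -0.92 to 0.15). Of its 3 other probe sets, 1 lay at or near the floor on all arrays, 1 gave the same calls, and 1 (1419247_at) gave +0.95 in stimulated cells with an adjusted p of 0.0703, which ended that call and kept the others. Signals of 20 early-response and dissociation genes, summed per array, moved with part of this pattern: the log2 sums were 17.0 to 17.5 in plasma cells, 16.9 to 17.1 and 16.5 to 16.7 in germinal center cells of days 40 and 7, 17.8 to 18.1 and 16.9 to 17.5 in memory cells of days 40 and 7, 15.4 to 16.1 in marginal zone cells, 16.5 to 16.6 in stimulated cells and 16.2 to 16.3 in follicular cells. All 20 had a probe set, Ier3 and Hspa1a were at background in follicular cells, and the part of this set in the Rgs1 and Rgs2 results was not tested.

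Rgs13 is a small family member known from germinal center B cells and mast cells, where it restrains chemokine responses. It was highest in the germinal center groups. Its signals were 2.56, 2.82 and 2.57 in plasma cells, 13.29, 13.47 and 13.10 in day 40 germinal center cells, 11.16, 11.34 and 11.63 in day 7 germinal center cells, 10.35, 10.59 and 8.44 in day 40 memory cells, 10.82, 5.47 and 6.15 in day 7 memory cells, 2.76, 2.47 and 2.56 in marginal zone cells, 4.45, 3.69 and 3.94 in stimulated cells and 3.84, 5.14 and 4.96 in follicular cells. Germinal center arrays were above all other arrays on both days, and 1 of the 3 day 7 memory arrays was far above the other two.

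Against follicular cells Rgs13 changed by +8.64 ± 0.89 in day 40 germinal center cells (adjusted p = 1.7e-07), by +6.73 ± 0.89 in day 7 germinal center cells (4.47e-06) and by +5.15 ± 0.89 in day 40 memory cells (2.75e-04). The log2 signals of 6 germinal center markers averaged 7.0 to 8.8 per array in day 40 memory cells. They averaged 5.3 to 5.4 in follicular cells and 12.5 to 12.6 in day 40 germinal center cells. The part of these markers' RNA in the Rgs13 values was not tested. In plasma, marginal zone and stimulated cells the changes of -2.00, -2.05 and -0.62 were not called (adjusted p = 0.0597, 0.135 and 0.600). Without replicate 1 of the day 7 memory cells the first 2 of these 3 changes were called with the same sizes (adjusted p = 5.38e-04 and 0.00192). Limma fits of only the groups compared called them too (adjusted p = 0.0068 and 0.0233). In day 7 memory cells the change of +2.83 ± 0.89 was called (adjusted p = 0.0193), but it rested on that replicate: without it the change was +1.16 and the adjusted p 0.0791. The call also ended without replicate 1 of the follicular cells (+2.43, adjusted p = 0.0787) and in a fit of only these groups (adjusted p = 0.244).

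Rgs18 is best known from platelets and megakaryocytes, where it limits activation through G protein-coupled receptors. In these B cells it was high in both naive populations and low or near background elsewhere. The signals were 2.35, 3.62 and 3.09 in plasma cells, 2.68, 2.19 and 2.17 in day 40 germinal center cells, 4.68, 5.03 and 4.53 in day 7 germinal center cells, 3.09, 4.01 and 3.27 in day 40 memory cells, 5.40, 2.34 and 2.18 in day 7 memory cells, 9.27, 9.28 and 9.20 in marginal zone cells, 3.23, 3.44 and 2.18 in stimulated cells and 7.81, 8.32 and 7.64 in follicular cells. All 6 naive arrays stood at 7.64 or above and none of the other 18 exceeded 5.40.

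The log2 changes of Rgs18 against follicular cells were -4.90 in plasma cells, -5.58 and -3.18 in germinal center cells of days 40 and 7, -4.47 and -4.62 in memory cells of days 40 and 7, and -4.97 in stimulated cells, each ± 0.59, with adjusted p of 1.85e-04 or less. In marginal zone cells it was +1.33 ± 0.59 and not called (adjusted p = 0.148), although the groups did not overlap; without replicate 1 of the day 7 memory cells the same change was called (adjusted p = 0.00853), and the other probe set of the gene (1449856_at) gave +1.93 (adjusted p = 5.23e-04). Of 8 platelet and megakaryocyte genes with a probe set, 7 were at background in both naive groups, among them Pf4, Ppbp, Itga2b and Gp9. The exception, Itgb3, averaged 6.83 in marginal zone cells and 9.69 in follicular cells.

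Rgs16, which acts on the Gi and Gq classes, was listed at 2.15 on all arrays of 7 groups. Its stimulated follicular arrays had 2.24, 2.17 and 4.29, so that 1 array stood above the floor by more than 0.1. With no filter on dim genes its change in stimulated cells was +0.75 (adjusted p = 0.111).

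Rgs10 is one of the smallest RGS proteins, little more than the RGS domain, and acts on the Gi class. It was lowest in follicular cells and higher in all other groups, most of all in marginal zone cells. The signals were 12.52, 12.75 and 12.57 in plasma cells, 13.38, 13.05 and 13.24 in day 40 germinal center cells, 11.99, 12.20 and 12.04 in day 7 germinal center cells, 10.00, 11.05 and 10.07 in day 40 memory cells, 11.53, 10.59 and 10.26 in day 7 memory cells, 13.62, 13.57 and 13.65 in marginal zone cells, 8.85, 7.35 and 8.37 in stimulated cells and 5.62, 6.62 and 6.56 in follicular cells. Each step in the order of means (marginal zone, day 40 germinal center, plasma, day 7 germinal center, memory of both days, stimulated, follicular) was free of overlap except between both memory groups.

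Rgs10 was the one member called in marginal zone cells, at +7.35 ± 0.36 against follicular cells (adjusted p = 2.33e-11). It was called higher in all 7 groups: +6.35 in plasma cells, +6.96 and +5.81 in germinal center cells of days 40 and 7, +4.11 and +4.53 in memory cells of days 40 and 7, and +1.92 in stimulated cells (adjusted p = 1.76e-04), each ± 0.36. The stimulated change was the smallest of the 7, with means of 8.19 ± 0.77 in stimulated and 6.27 ± 0.56 in follicular cells (SD, n = 3 each).

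Rgs14 carries, beside the RGS domain, a GoLoco motif that holds Gi alpha subunits in their GDP form, and Ras-binding domains. It was far lower in stimulated cells than in any other population. The signals were 9.99, 10.02 and 9.72 in plasma cells, 8.72, 8.40 and 8.67 in day 40 germinal center cells, 9.15, 8.79 and 8.99 in day 7 germinal center cells, 9.82, 10.07 and 10.36 in day 40 memory cells, 9.38, 10.06 and 9.88 in day 7 memory cells, 9.64, 9.19 and 9.42 in marginal zone cells, 4.16, 3.59 and 4.16 in stimulated cells and 10.30, 10.41 and 10.25 in follicular cells. The highest stimulated array, at 4.16, was below the lowest array of any other group, at 8.40.

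In stimulated cells Rgs14 changed by -6.35 ± 0.20 (adjusted p = 7.4e-15). It was also called lower in germinal center cells of day 40 (-1.72 ± 0.20, adjusted p = 5.88e-07) and day 7 (-1.34 ± 0.20, adjusted p = 1.37e-05). In marginal zone and day 7 memory cells the changes of -0.90 ± 0.20 and -0.55 ± 0.20 had adjusted p of 0.0025 and 0.0383 but were under 1 in size, and in plasma cells and day 40 memory cells the intervals, -0.82 to 0.00 and -0.65 to 0.17, ran up to or past 0.

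Rgs19, an early described RGS protein that binds the Gi class, varied least of the 7 tested members, with 1.64 log2 units between its highest and lowest group mean (Rgs1, the most variable, spanned 11.61). Its means were 12.51 ± 0.06 in plasma cells, 13.30 ± 0.04 and 13.54 ± 0.08 in germinal center cells of days 40 and 7, 13.64 ± 0.15 and 13.74 ± 0.10 in memory cells of days 40 and 7, 13.99 ± 0.22 in marginal zone cells, 13.49 ± 0.09 in stimulated cells and 14.14 ± 0.13 in follicular cells (SD, n = 3 each). Only the plasma cell change, -1.64 ± 0.12 (adjusted p = 5.23e-10), reached the minimum size, and its second probe set gave -1.57. In the other groups it was -0.15 to -0.84, below 0 each time, and in 5 of those 6 groups the adjusted p was 0.0116 or less.

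The changes of day 7 memory cells against follicular cells were recomputed without replicate 1 of the memory cells. Rgs1 at +9.65, Rgs2 at +1.78, Rgs10 at +4.16 and Rgs18 at -5.66 were called as with it. Rgs14 at -0.35 and Rgs19 at -0.37 were under 1 in size in both fits. Rgs13 was the one member whose call ended, and the count of members called was 4, against 5 with the array.

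**Figure D2:**
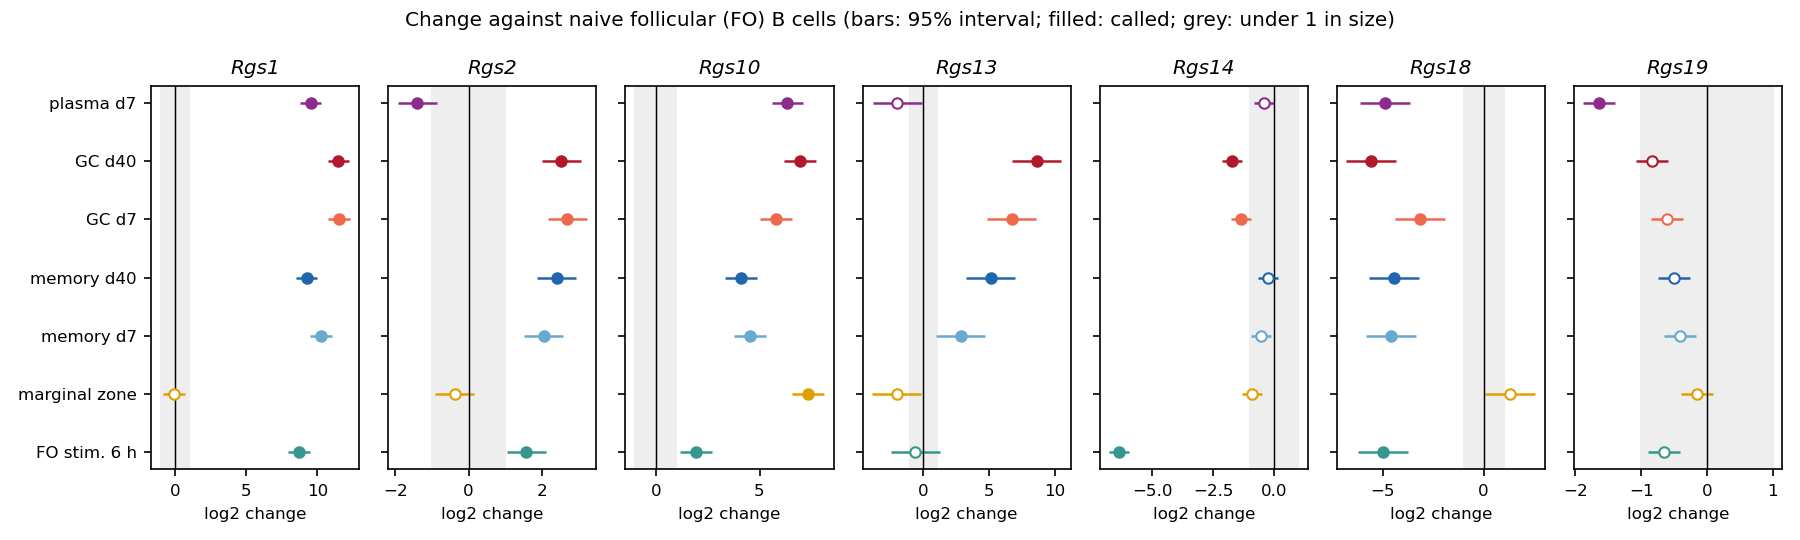
Log2 change of the 7 tested RGS genes (horizontal axis, scaled for each gene) in each group against naive follicular B cells, with the 95% interval from limma. Filled points passed the adjusted p of 0.05 and a change of 1, and the grey band covers changes under 1 in size. Rgs10 is the one gene to the right of the band in all 7 groups, and Rgs14 departs most in stimulated cells (-6.35).

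Comparing germinal center with memory cells asks how the 2 classes of antigen-binding IgG1 cells differ on the same day. On day 40, 4 of the 7 members were called (27.9% of all genes were): Rgs1 at +2.22 ± 0.36 (adjusted p = 5.04e-05), Rgs10 at +2.85 ± 0.36 (3.72e-06) and Rgs13 at +3.49 ± 0.89 (0.00319) were higher in germinal center cells, and Rgs14 was lower (-1.49 ± 0.20, adjusted p = 5.02e-06), all without overlap. Rgs2 differed by +0.12 ± 0.25 (95% interval -0.41 to 0.66). On day 7, 3 were called (23.7% of all genes): Rgs1 at +1.26 ± 0.36 (adjusted p = 0.00832), Rgs10 at +1.28 ± 0.36 (0.00824) and Rgs13 at +3.90 ± 0.89 (0.00168). Of these, Rgs1 overlapped between the groups.

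Replicate 1 of the day 7 memory cells was at or near the germinal center level in these genes. For Rgs1 it had 14.06, where the germinal center arrays of that day had 13.90 to 14.30 and the other memory arrays 12.12 and 12.31. For Rgs13 it had 10.82, against 11.16 to 11.63 in germinal center cells and 5.47 and 6.15 in the other memory arrays. Without it the day 7 differences were +1.88 for Rgs1, +1.65 for Rgs10 and +5.57 for Rgs13, all called, and Rgs18 was called as well (+2.49, adjusted p = 3.55e-05, against +1.44 and 0.0593 with it). The other probe set of Rgs18 gave +0.54 with all arrays kept (adjusted p = 0.251). A limma fit of the day 7 germinal center and memory groups alone, with all 3 memory arrays kept, called 0 of the 7. In it 2 members, Rgs10 and Rgs14, had an unadjusted p under 0.05. The adjusted p of that fit was 0.159 for Rgs1, 0.0508 for Rgs10 and 0.118 for Rgs13. In the fit of all groups, leaving out another memory replicate ended the Rgs1 call (+0.91 without replicate 2, adjusted p = 0.0543 without replicate 3). Without replicate 3 the Rgs10 call ended too (+1.02). Of the 7 germinal center markers, 6 had a probe set. Their log2 sums were 15.0 to 15.3 in day 7 germinal center cells and 13.0 to 14.2 in day 7 memory cells, replicate 1 included. Follicular cells had sums of 13.6 to 13.8, so the sums did not set memory cells apart from follicular cells. The mean log2 signals per array were 11.9 to 12.1 in day 7 germinal center cells, 6.2 to 10.8 in day 7 memory cells and 5.3 to 5.4 in follicular cells. None of the 6 was at background in the day 7 germinal center or day 7 memory group. That label needs all 3 arrays, and replicate 1 was far above the other memory arrays for Gcsam, Mef2b and Mybl1. The part of the markers in the Rgs results was not tested.

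**Figure D3:**
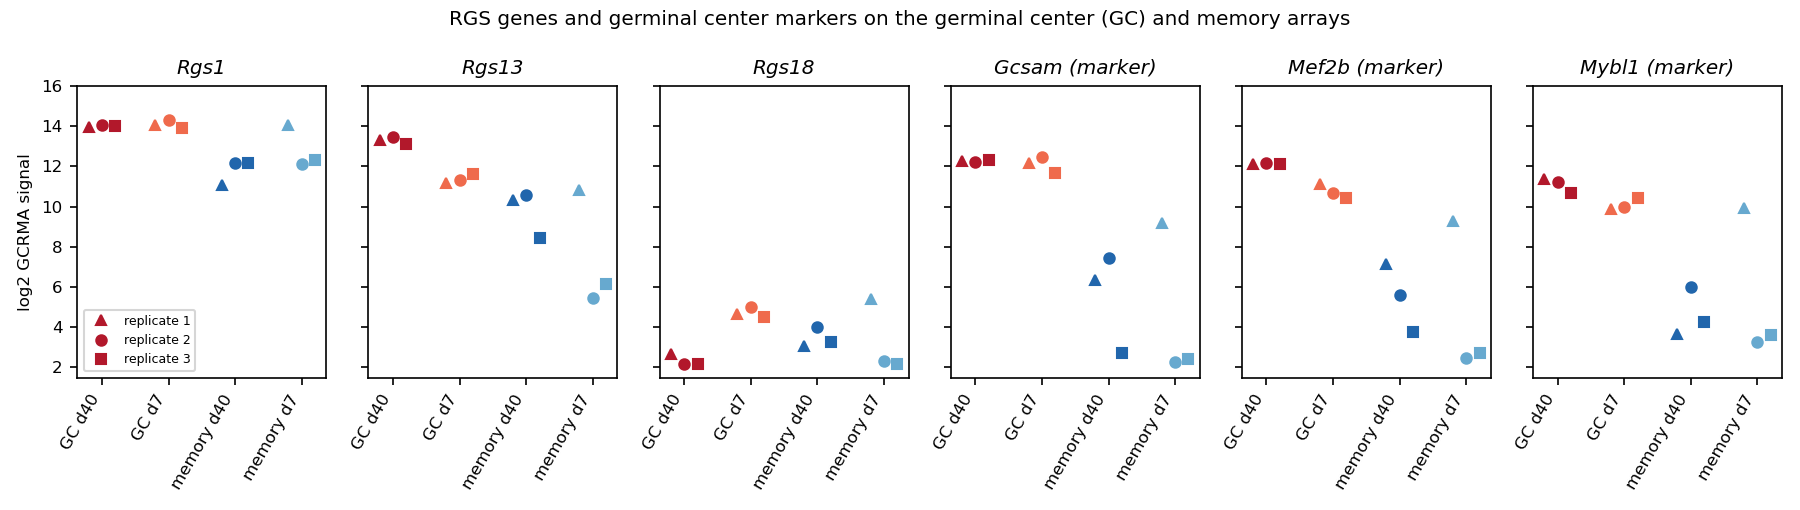
Log2 signal (vertical axis) of Rgs1, Rgs13, Rgs18 and 3 germinal center markers on the germinal center and memory arrays, with a symbol for each replicate number. The triangle of the day 7 memory group (replicate 1) is at 14.06 for Rgs1, 10.82 for Rgs13 and 5.40 for Rgs18, apart from the other two arrays of its group, and it is apart for Gcsam (9.21), Mef2b (9.31) and Mybl1 (9.95) too.

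The day 40 and day 7 groups ask what changes with time after immunization. Between memory cells of the 2 days limma called 0 of the 7 members (5.02% of all genes were called), with 2 at an unadjusted p under 0.05. These were Rgs13 at +2.31 ± 0.89 (adjusted p = 0.111) and Rgs1 at -1.02 ± 0.36 (adjusted p = 0.082). Without replicate 1 of day 7, Rgs13 was called at +3.98 (adjusted p = 2.91e-05) and Rgs1 was at -0.41, while without replicate 2 Rgs1 was called at -1.38 (adjusted p = 0.0293). Of 6 germinal center markers, 2 were called higher on day 40 and 0 lower without replicate 1 of day 7. Their part in the Rgs13 difference was not tested.

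Between germinal center cells of days 40 and 7, Rgs18 was the one member called (5.93% of all genes were), at -2.40 ± 0.59 (adjusted p = 0.0129). Its call ended without replicate 2 of either group (adjusted p = 0.0503 and 0.0505), and its other probe set gave -1.12 (adjusted p = 0.0560). Rgs13 at +1.91 ± 0.89 and Rgs10 at +1.15 ± 0.36 did not overlap between the days and were not called (adjusted p = 0.242 and 0.0586); without replicate 1 of the day 7 memory cells both were (0.0065 and 0.0339). The test of whether the germinal center against memory difference changed with the day called 0 of 7 (4.95% of all genes), with 3 at an unadjusted p under 0.05, namely Rgs10, Rgs14 and Rgs18. Rgs18 had the largest term, -2.55 ± 0.84 (adjusted p = 0.0849), and was called without that memory array (-3.60, adjusted p = 1.48e-04). Its other probe set gave a term of -1.24 with all arrays kept (adjusted p = 0.169).

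Plasma cells were also set against the other day 7 cells of the response. Against germinal center cells, 5 of 7 members were called, all lower (38.2% of all genes were called, 20.1% lower): Rgs13 at -8.73 ± 0.89, Rgs2 at -4.10 ± 0.25, Rgs1 at -2.00 ± 0.36, Rgs18 at -1.73 ± 0.59 (adjusted p = 0.018) and Rgs19 at -1.04 ± 0.12. The last 2 were the least stable: Rgs18 was not called without replicate 2 of the germinal center cells (adjusted p = 0.0578) or replicate 1 of the plasma cells (0.0872), nor by its other probe set (-0.87), and Rgs19 came to -0.99 without replicate 1 of the germinal center cells. Against memory cells, 4 were called (36.6% of all genes): Rgs10 was higher at +1.82 ± 0.36, and Rgs2 (-3.45 ± 0.25), Rgs13 (-4.83 ± 0.89) and Rgs19 (-1.23 ± 0.12) were lower. Without replicate 1 of the memory cells Rgs10, Rgs2, Rgs13 and Rgs19 were called at +2.19, -3.17, -3.16 and -1.26, and the uncalled changes of Rgs18 and Rgs14 had the other sign (+0.76 and -0.06 without it, -0.29 and +0.14 with it).

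The plasma cell arrays carried the plasma cell markers Sdc1, Xbp1 and Tnfrsf17 at means of 14.85, 14.98 and 12.17, and Pax5 was at background there. They also carried transcripts of another lineage. Of 11 myeloid genes 9 were tested, and 8 of these were called higher in plasma than in follicular cells, with log2 sums of the list at 15.3 to 15.4 in plasma cells and 7.85 to 9.11 in follicular cells. Lyz2, S100a8 and S100a9 averaged 13.16, 13.29 and 14.20 in plasma cells, while Adgre1 and Itgam were at background. Of 9 T cell genes with a probe set 7 were tested, and 5 were called higher in plasma than in follicular cells, with log2 sums of the list at 12.8 to 13.6 in plasma cells and 6.11 to 8.52 in follicular cells. These were Cd28, which plasma cells are known to express too, at a mean of 13.21 in plasma cells, and Cd4, Cd8a, Thy1 and Il7r at 3.58 to 5.13. The T cell receptor subunits Cd3d, Cd3e and Cd3g were at background in plasma cells.

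Myeloid transcripts were not limited to plasma cells. The log2 sums of the 11 genes were 10.0 to 14.5 and 10.1 to 10.9 in germinal center cells of days 40 and 7, 11.5 to 13.6 and 12.4 to 14.5 in memory cells of days 40 and 7, 12.3 to 12.9 in marginal zone cells and 7.10 to 9.15 in stimulated cells, beside 7.85 to 9.11 in follicular cells. Against follicular cells 4 of the 9 tested were called higher in memory cells of each day, among them Lyz2 (+6.33 ± 1.42 on day 40 and +5.53 ± 1.42 on day 7), and 1 was higher and 1 lower in germinal center cells of each day. The part of myeloid and T cell RNA in the Rgs values of plasma, germinal center, memory and marginal zone cells was not tested.

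RGS proteins act within a pathway of receptors, G protein subunits, kinases and arrestins, and 6 lists of its genes were read beside the members. Among migration receptors 15 of 18 were tested. In germinal center cells 2 were called higher and 8 lower on day 40, and 2 higher and 9 lower on day 7, against follicular cells; against memory cells 1 was higher and 11 lower on each day, where 27.9% of all genes were called on day 40 and 23.7% on day 7. Without replicate 1 of the day 7 memory cells the day 7 counts were the same. S1pr2, the receptor that confines cells to the germinal center, was the one that was higher in those last 2 comparisons (+4.38 ± 0.91 on day 40 and +4.91 ± 0.91 on day 7, or +6.39 ± 0.67 on day 7 without that array). The largest falls were in Ccr6, a chemokine receptor, at -10.11 ± 0.29 on day 40 and -9.23 ± 0.29 on day 7, in Ccr7, which guides cells to the T cell zone, at -7.89 ± 0.72 and -5.12 ± 0.72, and in Gpr183, the oxysterol receptor, at -6.15 ± 0.34 on day 40, and Cxcr3 at -8.22 ± 0.25 on day 7. Without that array the day 7 falls were -9.26 for Ccr6, -5.27 for Ccr7 and -8.27 for Cxcr3. The medians of the list were -2.16 on day 40 and -1.92 on day 7, where those of all genes were 0.02 and 0.01.

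Arrestins and receptor kinases switch receptors off by another route, and 4 of the 6 tested were called lower in stimulated than in follicular cells, where 39.3% of all genes were called: Arrb1 at -5.90 ± 0.36, Arrb2 at -2.76 and Grk6 at -2.45 ± 0.18 were the largest. Gnai2, the main Gi alpha subunit of lymphocytes and the substrate of most members, fell by 2.27 ± 0.16 on the log2 scale (means 10.96 in stimulated and 13.24 in follicular cells), and Gpsm3, a binding partner of Gi alpha subunits, by 4.14 ± 0.22. Of 9 beta and gamma subunits 2 were higher and 3 lower. Among them Gng4 was higher than in follicular cells by at least 9.23. It was at background in every group but the stimulated one. It thus passed the filter on dim genes through the group in which it is high, and its difference is given as a description. Among the receptors 2 were higher and 4 lower, with Cnr2 at -5.33 ± 0.31, S1pr4 at -5.28 and S1pr1, which draws cells out of the spleen, at -4.23 ± 0.57.

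In germinal center cells of day 40 the alpha subunit Gnaz, a Gi class member, was higher than in follicular cells by at least 10.29 (12.45 against 2.16, the follicular value at background), and Gpsm2, which organizes Gi subunits at the spindle, by at least 9.36. Gnb4, a beta subunit, was higher by 6.54 ± 0.63. Arrb1 was lower by 5.96 on the log2 scale (-5.96 ± 0.36). Counting each list, the calls were 2 higher and 1 lower of 9 alpha subunits, 3 higher and 1 lower of 9 beta and gamma subunits, and 2 higher and 2 lower of 7 exchange and dissociation factors, where 32.4% of all genes were called.

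Among the RGS-domain genes outside the members, 3 had their highest signals in those cells. Of the 15 listed, 13 had a probe set and 7 were tested. Rgs9, the RGS protein of photoreceptors and striatal neurons, had 6.99, 7.28 and 7.52 in day 40 germinal center cells and 2.17, 2.19 and 2.17 in day 7 germinal center cells, and was at background in the other groups. Rgs12 had 4.22, 4.34 and 5.15 on day 40 against 3.26, 2.16 and 2.15 on day 7, and Rgs4 had 3.42, 3.59 and 5.13 against 2.16, 2.15 and 2.15. Rgs9 and Rgs4 were above the array median on 3 arrays each, all of day 40 germinal center cells, and Rgs12 on 4 arrays. They passed the filter on dim genes through the group in which they are high, so their differences are given as a description. Between the days (40 minus 7) the log2 differences were at least 5.09 for Rgs9, 2.05 for Rgs12 and at least 1.89 for Rgs4. Against follicular cells, Rgs3 was called in marginal zone cells (+2.99 ± 0.25) and plasma cells (+2.96 ± 0.25). Rgs17 was above the array median on 4 arrays, in the marginal zone, day 7 germinal center and stimulated groups. It passed the filter in part through the stimulated arrays. Its difference there against follicular cells, at least +2.48 ± 0.79, is therefore given as a description. The Rgs17 arrays had 4.29, 7.49 and 2.15 in stimulated cells and 2.20, 2.15 and 2.15 in follicular cells, so that they overlapped at the floor and the follicular group was at background.

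In marginal zone cells, where Rgs10 was the member called, calls in the lists against follicular cells included the following, where 11.0% of all genes were called. The receptor kinases Grk3 (+5.84 ± 0.57) and Grk5 (+2.59 ± 0.50) were higher and Arrb1 was lower (-1.23 ± 0.36), of 6 tested. S1pr3 (+5.90 ± 0.31) and Cxcr3 (+2.48 ± 0.25) were higher among the receptors, and Cxcr4 (-2.10) and S1pr4 (-2.03) lower. Gnb4 (-3.04 ± 0.63) and Gng12 (-1.33 ± 0.40) were lower.

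**Figure D4:**
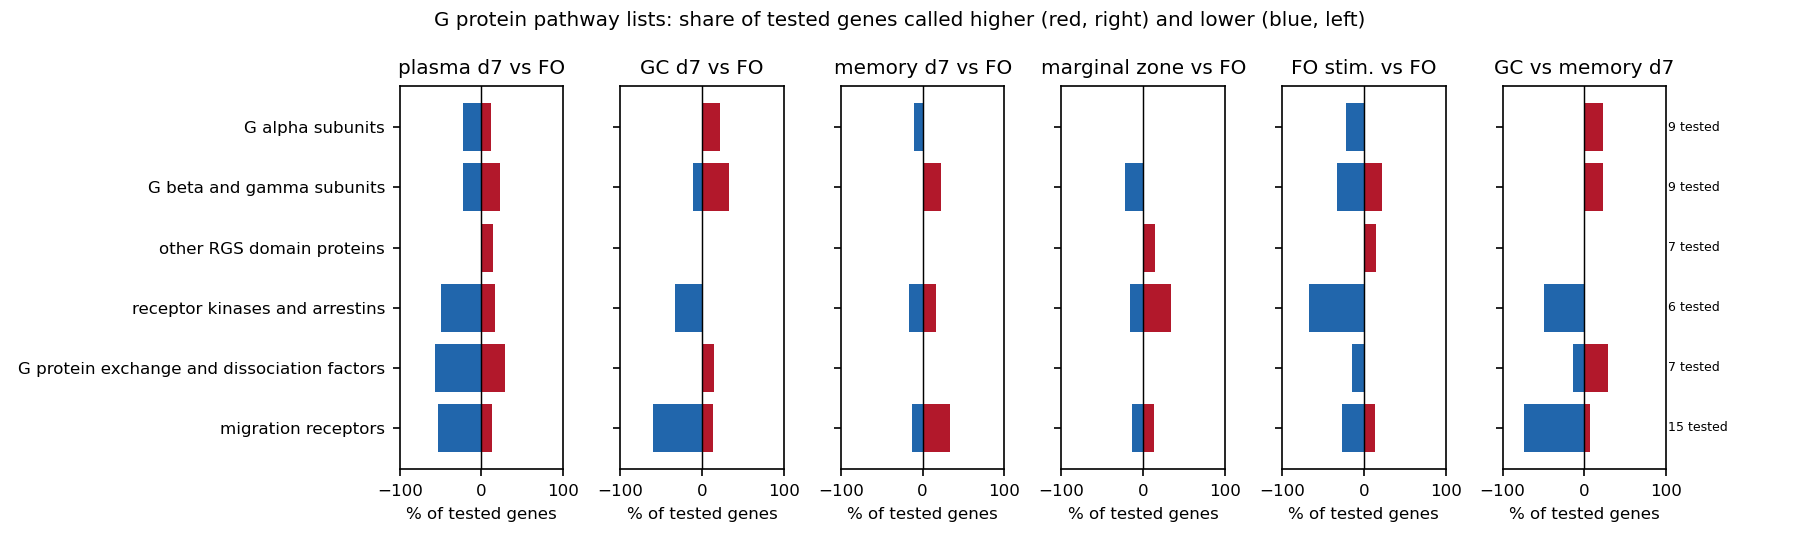
Share of the tested genes of 6 pathway lists called higher (red, to the right) or lower (blue, to the left) in 6 comparisons, in percent of the genes tested in each list, whose number is given at the right. Migration receptors were mostly lower in germinal center against memory cells on day 7 (11 of 15), and receptor kinases and arrestins were lower in stimulated follicular cells (4 of 6).

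For each tested member the genes with the most similar profile were found by Pearson correlation over the 8 group means, among 5623 genes (5624 for Rgs19) whose group means spanned at least 2 log2 units. The values describe the best of that many genes and carry no test. The closest were Tent5c (0.961), Cep57 (0.953) and Basp1 (0.940) for Rgs1, and Baiap2l1 (0.952), Havcr1 (0.941) and Cep43 (0.937) for Rgs2. For Rgs13 they were Rassf6 (0.969), Lrrc1 (0.967) and Arhgap8 (0.961), all highest in day 40 germinal center cells. Rgs14 was followed most closely by Rbl2, Myo18a and Etnk1 (each 0.992), all lowest in stimulated cells. That group stood far below all others for Rgs14 and weighs heavily in its correlations. Rgs18 was followed most closely by Nxpe4 (0.971), Oasl1 (0.967) and Fam189b (0.967), all highest in marginal zone cells. Rgs19 had Commd8 (0.987), Armc9 (0.976) and Rabep2 (0.975), and Rgs10 had Fam229b (0.947), Mzt2 (0.914) and Nudt1 (0.872), the lowest values of the 7.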

How the data were processed

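The authors deposited log2 signals made with GCRMA, per the submitters' processing notes; its version and settings are not given in the sources used here. The log2 values of 24 arrays (8 groups of 3) were used as deposited. Of 45101 probe sets, 34945 name 1 gene in the platform annotation, 932 several, 9160 none and 64 are controls. Each gene took its probe set with the highest mean, and genes above their array's median on at least 3 arrays were tested (11208). One limma model (limma 3.58.1, R 4.3.3) with 8 group means gave each contrast, with an adjusted p (Benjamini-Hochberg) threshold of 0.05 and a log2 change of at least 1. A gene was at background in a group when its 3 arrays were at or below their medians, and a change against it is then given as "at least". The fit was tested on simulated data. Genes named are the 8 members, the 3 most similar genes of each, up to 3 called genes per pathway list and comparison by size with arrays that did not overlap, and marker genes beside the results they bear on. Rgs17, whose arrays overlapped in the comparison given, is named as well. The members and lists were chosen with earlier results of these data known. Alternatives were another filter, scaling, offset, probe set rule, prior, array weights, a replicate block, fits of only the groups compared and leaving out each array. Each other probe set of a member was added after the data were seen. Activated marginal zone cells were not analysed here, and 1 list of pathway genes is not reported here. No scan date or batch was given.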

Additional observations from a re-analysis of the deposited data

How the results depend on the processing

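Of the 98 pairs of a tested member and a comparison, 50 were called. Of these, 45 kept their direction and call under each alternative set out at the start that keeps all arrays, 44 kept both without each of the 24 arrays in turn, and 43 under both. With each other probe set of a member, added later, 36 of the 45 kept both: 1443250_at of Rgs2, at or near the floor on all arrays, ended 8 calls, and the others ended 3. Rgs1, Rgs10, Rgs13 and Rgs14 have only 1 probe set each, so this check could not change their calls. Of the 48 pairs not called, 21 were called under at least 1 alternative that keeps all arrays and 14 without some array. No called change had another sign under any setting, and of the pairs not called 10 changed sign under at least 1 setting, with no call there. Members called by comparison moved by more than 1.5 times as follows. In germinal center cells of day 40 against day 7 the count was 1, and 2 with quantile normalization, with an offset of 16 before the logarithm or with a trended and robust prior, and 3 with array weights or only the groups compared. In marginal zone against follicular cells it was 1, and 2 with the offset, with probe sets averaged per gene or with no minimum change, and 3 with array weights or only the groups compared. In germinal center against memory cells on day 7 it was 3, and 5 with array weights or no minimum change and 0 with only the groups compared. In memory cells of day 40 against day 7 it was 0, and 2 with array weights, and in the day by cell type test 0, and 1 with quantile normalization or array weights. The cause of these moves was not tested.

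Leaving out 1 array gave 1 to 3 calls in marginal zone against follicular cells, 4 to 5 in day 7 memory and 5 to 6 in plasma cells against follicular cells, 1 to 4 and 4 to 5 in germinal center against memory cells on days 7 and 40, 0 to 1 in memory and 0 to 3 in germinal center cells of day 40 against day 7, 4 to 5 and 4 to 6 in plasma against memory and germinal center cells, and 0 to 1 in the day by cell type test. With the replicate number as a block the counts were the same in all 14 tests (for example 5 in stimulated and 6 in day 40 germinal center against follicular cells). In 0 of 13 comparisons did all same-numbered arrays deviate together at r over 0.1 (r from -0.496 to 0.445). The labels do not say whether a replicate number stands for a shared mouse or sort, and these correlations cannot settle it.

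Scaling the arrays to 1 median moved the median change of all genes by more than 0.1 in stimulated against follicular cells and in plasma cells against memory and germinal center cells of day 7, with no member's call changed: it was -0.24, -0.15 and -0.18 there, against -0.02, 0 and -0.05 as deposited. Over all genes, counts moved by over 1.5 times with no minimum change in 9 comparisons (at most in memory cells of day 40 against day 7, 1141 against 563), with the stricter filter at the 75th percentile (805 against 1237 in marginal zone cells, 366 against 563 in memory and 428 against 665 in germinal center cells over time, 354 against 555 in the day by cell type test), with array weights (908 against 563 and 975 against 555) and with only the groups compared (199 against 563 and 425 against 665). Signals near the floor limit what can be said of low levels: for Rgs1 in naive cells, Rgs13 in marginal zone and plasma cells and Rgs18 in day 40 germinal center cells, signals lay near the array medians, and the background correction was not varied here.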
